A study of Rattus norvegicus with 24 samples.

Results

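The annexins are a family of proteins that bind acidic phospholipids in membranes when calcium is present. They were followed here in the colon and colonic tumours of rats with 1 mutant copy of Apc. The 10 genes were all probes of the array whose gene name is Anxa1, Anxa2, Anxa3, Anxa4, Anxa5, Anxa6, Anxa7, Anxa8, Anxa11 or Anxa13, which gave 17 of the 41012 gene probes and, with the brightest probe standing for each gene, 10 of the 26675 features tested. All 17 passed the filter on dim probes. All animals were male (ACIxF344)F1-Pirc rats of genotype Apc-Pirc/+, 97 days old, so that every group carried the Apc mutation, and 2 tissues, a colonic tumour and the normal distal colon, were taken from each of the 10 rats. The 4 groups of 5 rats comprised tumours after DSS on 6 arrays, tumours without DSS on 5, normal colon after DSS on 6 and normal colon without DSS on 7. DSS is dextran sodium sulfate, an irritant that injures the colonic lining, of molecular weight 500000. Rats 1, 5, 6, 7 and 9 drank it at 4% in water from day 40 to day 47 and again from day 54 to day 61, and rats 2, 3, 4, 8 and 10 did not. The germline mutation is present in every cell, and the tissues were measured whole.

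Annexins share a core of repeated calcium-binding domains and differ in a short amino-terminal tail that binds partner proteins. Anxa1 is released by neutrophils and injured epithelium and acts through formyl peptide receptors to limit inflammation. Anxa2 pairs with S100a10 at the cell surface, where the complex assembles plasminogen with its activators. Anxa5 covers exposed phosphatidylserine, Anxa4 and Anxa13 are annexins of polarized epithelium, and Anxa1 and Anxa8 are abundant in stratified squamous epithelium. Several annexins, among them Anxa1, Anxa2, Anxa5 and Anxa6, gather at wounds of the plasma membrane during repair.

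The probes are 60 bases long, and those of the 4 genes shown here carried the changes below. Capitals mark the longest stretch that each shares letter for letter with a probe of another annexin, which was 7 to 13 bases over the 17 probes. No pair of annexins was read through nearly identical probes.
Anxa1: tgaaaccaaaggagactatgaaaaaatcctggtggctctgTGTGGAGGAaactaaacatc
Anxa5: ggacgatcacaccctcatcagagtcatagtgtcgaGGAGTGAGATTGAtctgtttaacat
Anxa8: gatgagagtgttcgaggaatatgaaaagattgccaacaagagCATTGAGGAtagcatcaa
Anxa13: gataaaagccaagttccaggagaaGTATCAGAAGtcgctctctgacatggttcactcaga

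Each value is log2 of the sample (labelled with Cy3) over pooled colon RNA of wild-type rats (labelled with Cy5) on the same array, so that 0 is the level of the pool, and a difference of 1 is a doubling. Log2 changes are given with the standard error of a limma fit over all features with 5 rats per group, and adjusted p is Benjamini-Hochberg over all 26675 features with a threshold of 0.05. On 3 arrays, those of the first normal colon array of rat 2, the normal colon of rat 4 and the tumour of rat 9, the share of probes well above background was 86.9% to 95.2%, against 47.6% to 70.5% on the other 21. The normal colon samples of DSS rats 1 and 5 correlated at 0.97 across features, against 0.722 to 0.863 for other pairs of that group and 0.812 to 0.968 for second arrays of the same sample, so results for normal colon are also given without each of them. The labels count the rats as separate animals. The slides were put in 2 lots by the leading characters of their identifiers, each lot holding rats of every group. Lot 1 was scanned on scan days 1 and 2 and lot 2 on scan day 3. A difference between the lots therefore cannot be told apart from one between those days. In whole tissue, fewer cells of a type and less RNA per cell cannot be told apart.

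Within DSS rats, tumour against normal colon gave 2 calls, Anxa4 higher and Anxa1 lower, where 7.58% of all features were called (3.73% higher and 3.85% lower). The 2 groups overlapped for all 10 annexins, and 7.68% of features had groups that did not. The median change over the 10 annexins was 0.08, against 0.02 over all features. In tumours of untreated rats, 5 annexins (Anxa1, Anxa2, Anxa3, Anxa5 and Anxa8) were higher than in normal colon of untreated rats, and Anxa13 was lower. These 6 of 10 passed the threshold, where 18% of all features did (8.55% higher and 9.42% lower). Each of the 6 had groups that did not overlap, where 12.4% of features did. The median change was 0.73, and over all features it was 0.

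In normal colon of DSS rats against normal colon of untreated rats, Anxa1, Anxa3, Anxa5 and Anxa8 were higher and none passed as lower, 4 of 10 against 7.24% of all features (3.91% higher and 3.33% lower). The median change was 0.52, against -0.01 over all features. Groups did not overlap for 4 annexins, where 8.61% of features had such groups. They were Anxa1, Anxa5 and Anxa8, all higher, and Anxa13, which was lower and not called. Between tumours of DSS rats and tumours of untreated rats, limma called no annexin and no feature at all (0% called), and groups of 0 annexins and 0.806% of features did not overlap. At an unadjusted p under 0.05 there were 3 annexins (Anxa1, Anxa4 and Anxa5) and 1674 of all features, 6.28%, with a smallest adjusted p of 0.167. The difference between the DSS effect in tumours and the DSS effect in normal colon, called the interaction below, was negative for Anxa1, Anxa3, Anxa5 and Anxa8, 4 of 10 where 2.5% of all features were called (0.828% positive and 1.67% negative). With the rat as a fixed block, Anxa2 passed as well (5 of 10), where 5.61% of all features were called. Its probe was saturated on nearly all tumour arrays, which limits that result. The median interaction over the 10 annexins was -0.66, against 0.02 over all features. These comparisons share groups, so their calls are not independent of each other.

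**Figure D1:**
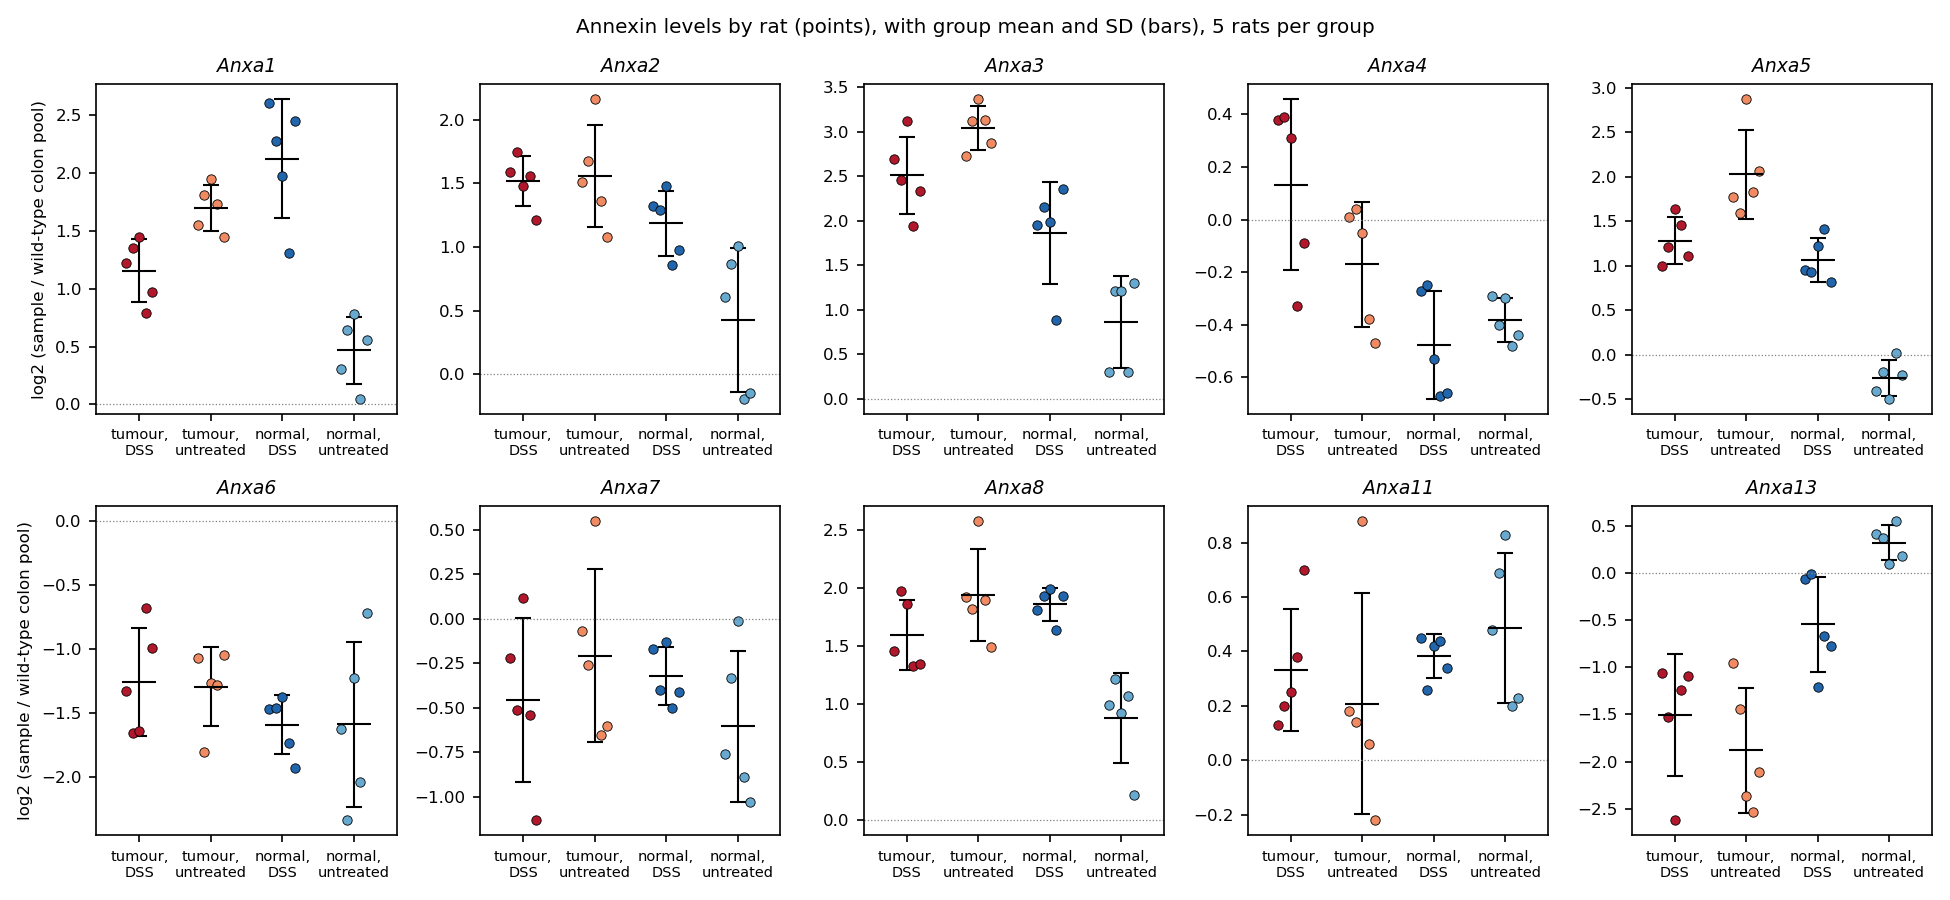
Level of each annexin as log2 of the sample over the wild-type colon pool (vertical axis, a different range in each panel) for tumours of DSS rats, tumours of untreated rats, normal colon of DSS rats and normal colon of untreated rats. Points are rats, and bars are the mean and SD of 5 rats. Anxa1, Anxa5 and Anxa8 of normal colon of untreated rats lay below all other groups, with Anxa1 at 0.05 to 0.78 and Anxa5 at -0.49 to 0.02.

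**Figure D2:**
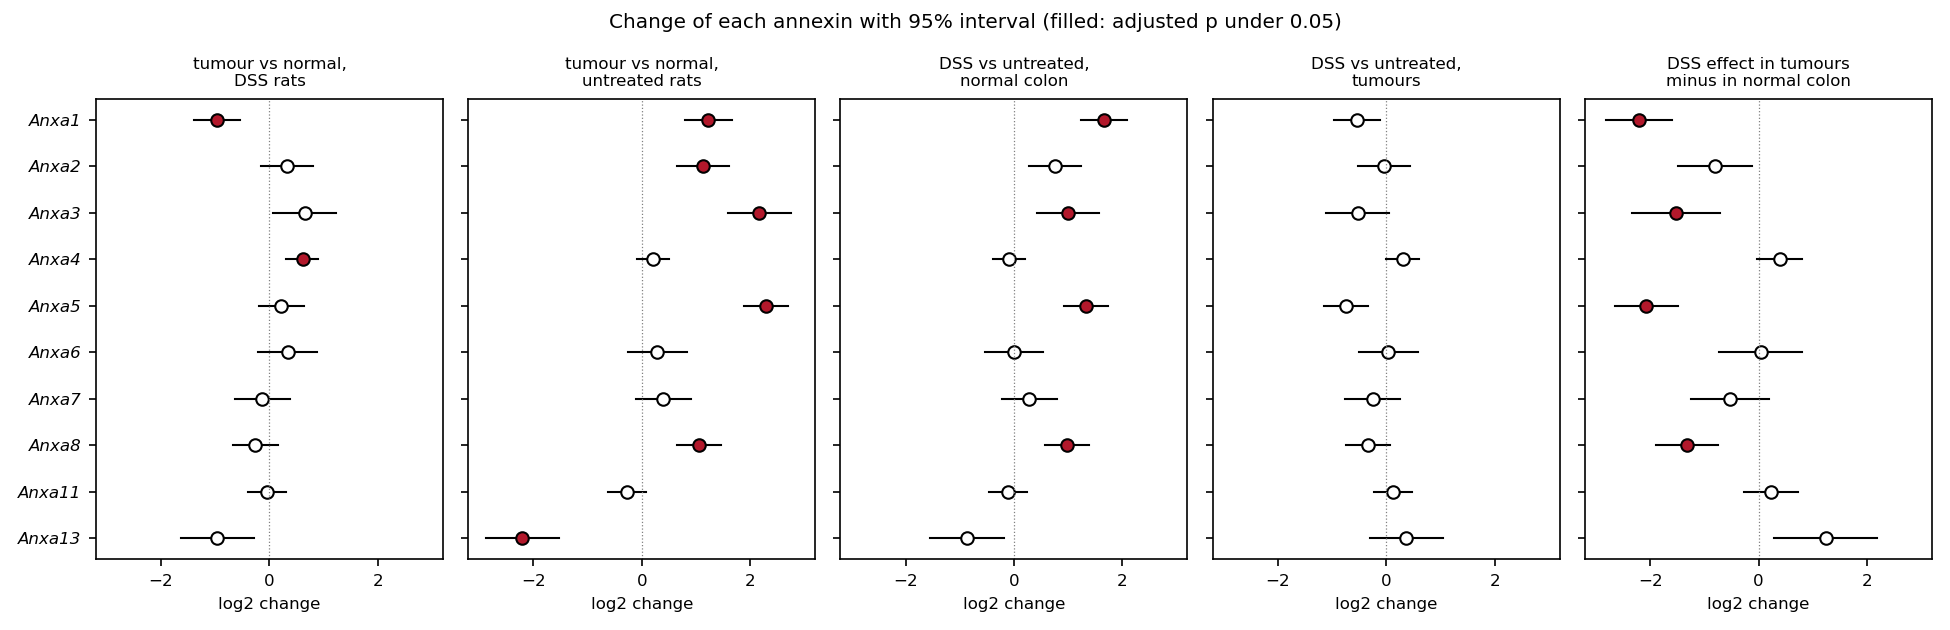
Log2 change of each annexin (horizontal axis) in 4 comparisons and in the interaction, with 95% intervals of the limma fit. Filled points have an adjusted p under 0.05: there are 2, 6, 4, 0 and 4 from left to right.

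Anxa1, a ligand of formyl peptide receptors, rose in normal colon after DSS and in tumours of untreated rats, and was lower in tumours than in normal colon of DSS rats. In tumours of DSS rats (1, 5, 6, 7 and 9) it was at 1.22, 1.35, 1.45, 0.79 and 0.97, against 2.61, 2.28, 1.98, 1.31 and 2.45 in their normal colon. In tumours of untreated rats (2, 3, 4, 8 and 10) it was at 1.55, 1.81, 1.95, 1.73 and 1.45, against 0.31, 0.64, 0.78, 0.05 and 0.56 in their normal colon. Every DSS rat had less Anxa1 in its tumour than in its normal colon, and every untreated rat had more.

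In normal colon, the DSS effect on Anxa1 was 1.66 ± 0.20, a 3.16-fold rise (adjusted p = 6.11e-05, limma). It was 1.54 without rat 1 and 1.62 without rat 5. Tumour against normal colon was -0.97 ± 0.20 in DSS rats (adjusted p = 0.00576) and 1.23 ± 0.20 in untreated rats (adjusted p = 0.000452). The interaction was -2.20 ± 0.29 (adjusted p = 0.000546). In tumours the DSS effect was -0.54 ± 0.20, which did not pass (adjusted p = 0.625). With median centring in place of loess no Anxa1 call was left, at -0.24 for tumours of DSS rats (adjusted p = 0.755), 1.07 for tumours of untreated rats (adjusted p = 0.364), 1.42 for DSS in normal colon (adjusted p = 0.287) and -1.31 for the interaction (adjusted p = 0.36). By mean, normal colon of DSS rats stood first at 2.13, followed by tumours of untreated rats at 1.70, whose ranges overlapped, then tumours of DSS rats at 1.16 and normal colon of untreated rats at 0.47.

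Those Anxa1 values are compressed, because the sample signal of the standing probe was saturated on 12 of 24 arrays. They were 2 of 6 arrays of tumours of DSS rats, all 5 of tumours of untreated rats, 5 of 6 of normal colon of DSS rats and 0 of 7 of normal colon of untreated rats. A bound from the sample channel after loess and Aquantile put Anxa1 at least 2.84-fold higher in tumours of untreated rats than in their normal colon. It is open to dye bias, since dyes were not swapped. A second Anxa1 probe was saturated on 4 arrays, 2 of 5 of tumours of untreated rats and 2 of 6 of normal colon of DSS rats, and correlated with the first at 0.969 over the 20 samples.

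On that second probe the spread between groups was wider. It was at 1.57, 1.84, 2.39, 1.06 and 1.42 in tumours of DSS rats, against 4.30, 4.39, 3.77, 1.48 and 3.96 in their normal colon. Tumours of untreated rats were at 2.74, 2.46, 3.46, 2.45 and 2, against 0.38, 0.67, 0.80, 0.13 and 0.96 in their normal colon. Rat 7 was the lowest of the DSS rats in both tissues. The DSS effect in normal colon was 2.99 ± 0.43 on this probe (adjusted p = 0.000287), with some arrays of the brighter group saturated, and tumour against normal colon was -1.93 ± 0.43 in DSS rats (adjusted p = 0.00889) and 2.04 ± 0.43 in untreated rats (adjusted p = 0.0029). The interaction was -3.96 ± 0.61 (adjusted p = 0.00142). The direction of each Anxa1 call was the same on both probes.

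Fpr1, a formyl peptide receptor, gave little signal. Its probe was well above background on 6 of 24 arrays, and its group means ran from -0.03 in tumours of DSS rats to 0.12 in normal colon of DSS rats. It passed in no comparison. Fpr2 was not matched to a probe.

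Markers of squamous epithelium, like Anxa1 and Anxa8, were higher in normal colon after DSS. All 9 measured markers of that list were higher in normal colon of DSS rats than in normal colon of untreated rats, with a median change of 2.53, where 3.91% of all features were called higher. In tumours of DSS rats against their normal colon, 7 of the 9 were lower, where 3.85% of features were. In tumours of untreated rats, where Anxa1 and Anxa8 were higher, 1 of the 9 was higher and 0 were lower. Of all features, 8.55% were called higher and 9.42% lower in that comparison. The median change of the list there was -0.11. Averaged over the list, a rat was at 2.46 to 3.67 in normal colon of DSS rats and -0.19 to 1.44 in normal colon of untreated rats, where rat 8 was the highest, and at -0.13 to 0.33 in tumours of DSS rats and -0.01 to 0.44 in tumours of untreated rats. All 9 were well above background on at least 1 array of normal colon of DSS rats, so that none was at background throughout that group, and 1 was on no array of tumours of untreated rats. Rat 8, the untreated rat with the highest squamous mean in normal colon, had the lowest Anxa1 of its group at 0.05. For the 3 lists that follow, the shares of all features called higher were 3.73% in tumours of DSS rats and 8.55% in tumours of untreated rats. In normal colon after DSS the share was 3.91%. Of 7 neutrophil markers, 1 was higher in tumours of DSS rats, 5 in tumours of untreated rats and 2 in normal colon after DSS, and none was lower. Their mean per rat was 0.73 to 1.04 in tumours of DSS rats, 0.89 to 1.85 in tumours of untreated rats, 0.69 to 1.14 in normal colon of DSS rats and -0.28 to 0.16 in normal colon of untreated rats. Of 8 macrophage markers, 1 was higher in tumours of DSS rats, 5 in tumours of untreated rats and 1 in normal colon after DSS. Their mean per rat was 0.16 to 0.63 in tumours of DSS rats, 0.15 to 0.73 in tumours of untreated rats, -0.02 to 0.16 in normal colon of DSS rats and -0.34 to 0.05 in normal colon of untreated rats. Of 8 fibroblast markers, 0 were higher in tumours of DSS rats, 4 in tumours of untreated rats and 1 in normal colon after DSS. Their mean per rat was -1.25 to -0.22 in tumours of DSS rats, -1.48 to 0.05 in tumours of untreated rats, -2.16 to -1.19 in normal colon of DSS rats and -2.53 to -1.29 in normal colon of untreated rats. The part of these cell types in the annexin changes was not tested.

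Anxa8, an annexin of squamous epithelium, was read by 1 probe that was saturated on none of the arrays. It was at 1.46, 1.98, 1.86, 1.33 and 1.35 in tumours of DSS rats, against 1.81, 1.93, 1.99, 1.64 and 1.93 in their normal colon. In tumours of untreated rats it was at 1.92, 1.82, 2.58, 1.90 and 1.49, against 0.99, 1.22, 0.92, 1.07 and 0.22 in their normal colon. Normal colon of untreated rats was the low group, and the other 3 overlapped one another.

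Anxa8 rose by 0.98 ± 0.20 with DSS in normal colon (adjusted p = 0.0046), 0.99 without rat 1 and 0.96 without rat 5. Tumour against normal colon was -0.26 ± 0.20 in DSS rats (adjusted p = 0.507) and 1.06 ± 0.20 in untreated rats (adjusted p = 0.00105). The interaction was -1.32 ± 0.28 (adjusted p = 0.0139). That call was lost without rat 1 (adjusted p = 0.0521), without rat 9 (adjusted p = 0.0541) and without the 3 arrays of raised signal (adjusted p = 0.0609), and in each lot alone (adjusted p = 0.0621 and 0.226). With median centring in place of loess the interaction was -0.37 (adjusted p = 0.746), and the calls for tumours of untreated rats (0.77, adjusted p = 0.641) and for DSS in normal colon (0.58, adjusted p = 0.791) were lost too.

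Anxa5, which binds phosphatidylserine on damaged and dying cells, rose in tumours of untreated rats and in normal colon after DSS. It was at 1, 1.21, 1.64, 1.46 and 1.11 in tumours of DSS rats, against 0.95, 0.93, 1.22, 1.42 and 0.82 in their normal colon. In tumours of untreated rats it was at 1.77, 1.60, 2.87, 1.83 and 2.07, against -0.41, -0.19, -0.49, 0.02 and -0.23 in their normal colon. The normal colon of untreated rats lay near or below the pool, and all 15 other samples lay well above it.

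In DSS rats Anxa5 of tumour and normal colon differed by 0.22 ± 0.20 (adjusted p = 0.598, 95% interval -0.19 to 0.63), although the tumour value was the higher one in all 5 rats. The tumour rise in untreated rats was 2.29 ± 0.20, 4.88-fold (adjusted p = 8.58e-07). The DSS rise in normal colon was 1.33 ± 0.20, 2.51-fold (adjusted p = 0.000338), and 1.36 without rat 1 or rat 5. Tumours of DSS rats and tumours of untreated rats differed by -0.74 ± 0.20, with an unadjusted p of 0.00125 and an adjusted p of 0.375. The interaction was -2.07 ± 0.28 (adjusted p = 0.000573). With median centring in place of loess the calls for DSS in normal colon (0.99, adjusted p = 0.537) and the interaction (-1.13, adjusted p = 0.378) were lost. By mean, tumours of untreated rats came first at 2.03, followed by tumours of DSS rats at 1.28 and normal colon of DSS rats at 1.07, and none of those neighbours differed past the threshold; normal colon of untreated rats came last at -0.26. A second Anxa5 probe correlated with the first at 0.968 and gave 2.03 ± 0.20 for tumours and 1.19 ± 0.20 for DSS in normal colon.

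Anxa3, linked to growth of blood vessels and to migration of tumour cells, followed the same order as Anxa5. It was at 2.69, 2.45, 3.12, 1.94 and 2.33 in tumours of DSS rats, against 1.95, 2.15, 1.98, 0.88 and 2.35 in their normal colon. Tumours of untreated rats had 2.72, 3.12, 3.36, 3.13 and 2.87, against 0.30, 1.21, 1.21, 0.30 and 1.30 in their normal colon. Rat 7 was apart in the normal colon of DSS rats, and without it that group would not overlap normal colon of untreated rats.

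The tumour difference of Anxa3 in DSS rats was 0.65 ± 0.27 and did not pass (adjusted p = 0.188). In untreated rats it was 2.17 ± 0.27, 4.51-fold (adjusted p = 4.53e-05), and the 2 other probes gave 1.77 ± 0.28 and 2.04 ± 0.29. The DSS rise in normal colon was 1 ± 0.27 (adjusted p = 0.0344). It lost the call when any of rats 1, 2, 3, 5, 6, 8 and 9 was left out (0.86 to 1.08, adjusted p 0.0528 to 0.102), and the value was 0.98 without rat 1 and 0.92 without rat 5. It was also lost without the 3 arrays of raised signal (1.06, adjusted p = 0.0508). The interaction was -1.53 ± 0.39 (adjusted p = 0.0435) and lost the call without any of rats 1, 2, 3, 4, 5, 8 and 9 (-1.59 to -1.36, adjusted p 0.0609 to 0.137) and without the 3 arrays of raised signal (-1.55, adjusted p = 0.0935). With median centring in place of loess no Anxa3 call was left, at 1.96 for tumours of untreated rats (adjusted p = 0.0716), 0.70 for DSS in normal colon (adjusted p = 0.773) and -0.61 for the interaction (adjusted p = 0.616). On the 2 other probes the interaction was -1.44 (adjusted p = 0.0605) and -1.52 (adjusted p = 0.0571).

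**Figure D3:**
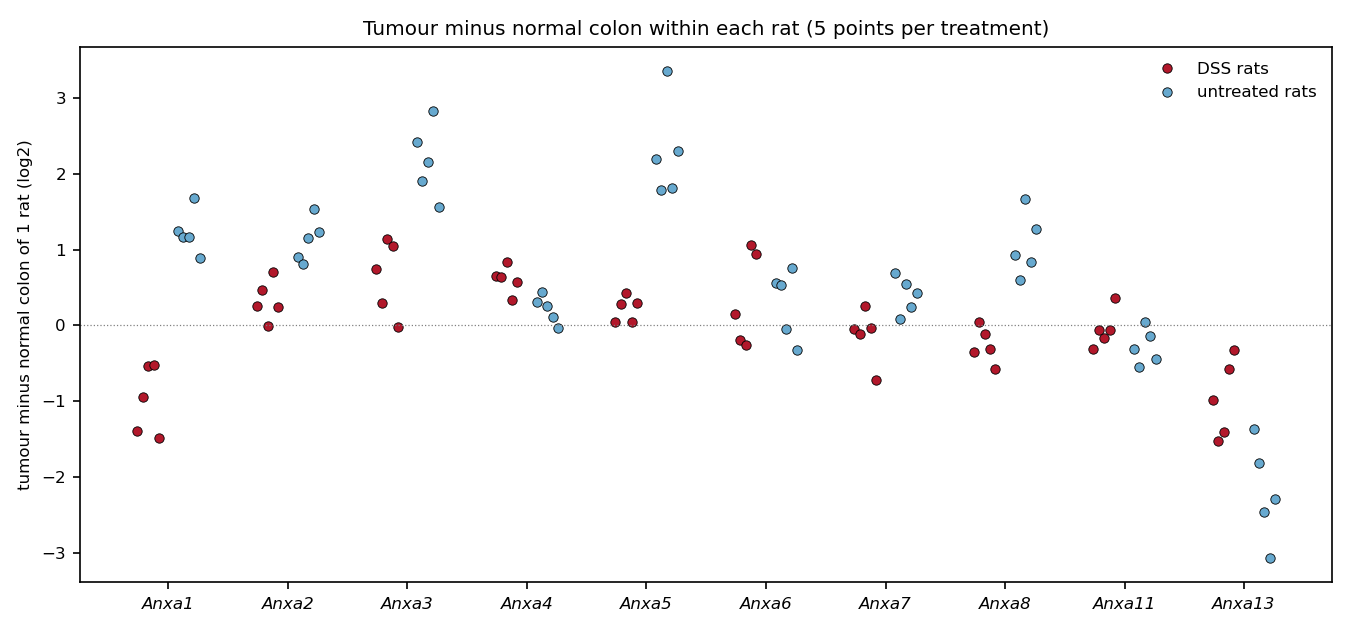
Tumour minus normal colon within each rat (vertical axis, log2) for the 10 annexins. The 5 DSS rats are at the left of each gene and the 5 untreated rats at the right. For Anxa1 the DSS rats lie between -1.48 and -0.52 and the untreated rats between 0.89 and 1.68.

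Within rats, 4 of 10 annexins moved in 1 direction in all 5 DSS rats (24.5% of features did), and 7 of 10 did so in all 5 untreated rats (31.2% of features). For Anxa5 the tumour exceeded the normal colon by 0.04 to 0.42 in DSS rats and by 1.79 to 3.35 in untreated rats. For Anxa3 the range was -0.02 to 1.14 in DSS rats and 1.56 to 2.83 in untreated rats, and for Anxa8 it was -0.57 to 0.05 in DSS rats and 0.60 to 1.66 in untreated rats. The 2 sets of 5 rats did not overlap for 5 annexins (Anxa1, Anxa2, Anxa3, Anxa5 and Anxa8), where 7.36% of features had sets that did not. For Anxa2 the range was -0.01 to 0.70 in DSS rats and 0.81 to 1.54 in untreated rats. Saturation of its probe on nearly all tumour arrays limits these differences.

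The 4 genes called both for DSS in normal colon and for tumours of untreated rats are shown here with the 250 bases before their start in RefSeq, on build GRCr8. Capitals mark the TATA box, with the letters TATAAA, wherever it was found on either strand. They also mark the GC box, with the letters GGGCGG.
Anxa1, chr1:227303733-227303982, minus strand: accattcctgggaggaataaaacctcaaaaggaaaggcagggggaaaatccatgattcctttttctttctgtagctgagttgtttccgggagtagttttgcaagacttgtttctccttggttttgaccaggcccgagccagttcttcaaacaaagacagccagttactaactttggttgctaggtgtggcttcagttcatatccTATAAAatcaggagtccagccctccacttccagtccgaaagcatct
Anxa3, chr14:13085598-13085847, minus strand: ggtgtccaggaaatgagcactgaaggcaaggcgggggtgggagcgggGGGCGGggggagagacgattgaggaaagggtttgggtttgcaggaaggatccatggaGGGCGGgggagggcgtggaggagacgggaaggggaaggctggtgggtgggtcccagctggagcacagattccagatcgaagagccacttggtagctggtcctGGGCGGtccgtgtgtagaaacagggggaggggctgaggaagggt
Anxa5, chr2:121272697-121272946, minus strand: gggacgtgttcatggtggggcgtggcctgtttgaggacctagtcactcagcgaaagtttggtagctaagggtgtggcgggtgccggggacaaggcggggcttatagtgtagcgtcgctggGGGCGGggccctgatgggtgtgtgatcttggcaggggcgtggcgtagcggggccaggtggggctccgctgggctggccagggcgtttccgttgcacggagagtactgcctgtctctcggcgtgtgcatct
Anxa8, chr16:9403137-9403386, plus strand: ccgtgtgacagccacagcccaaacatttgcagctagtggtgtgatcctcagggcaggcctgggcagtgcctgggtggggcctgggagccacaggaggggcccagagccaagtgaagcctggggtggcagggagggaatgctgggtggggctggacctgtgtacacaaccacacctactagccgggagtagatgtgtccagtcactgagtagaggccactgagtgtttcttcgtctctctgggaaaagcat

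The 4 upstream regions differed in their letters. Anxa1 had a TATA box 46 bases before the start and no GC box, with 45.2% G and C. Anxa3 had 3 GC boxes, at 203, 146 and 44 bases, and Anxa5 had 1 at 130 bases. Anxa8 held neither motif. A TATA box was found in 13.2% and a GC box in 32.1% of all 27457 RefSeq promoters over the same 250 bases. Of the 8 annexins with a RefSeq promoter, 5 held a GC box (Anxa2, Anxa3, Anxa4, Anxa5 and Anxa11) and 2 a TATA box (Anxa1 and Anxa2). A TCF site, CTTTGAA, was in 4.67% of all promoters and in that of Anxa7 alone among the annexins. An AP-1 site, TGANTCA, was in 6.41% and in that of Anxa2 alone. Such matches describe the letters of these windows only.

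Anxa2, the plasminogen-binding partner of S100a10, was at 1.59, 1.75, 1.48, 1.56 and 1.21 in tumours of DSS rats, against 1.32, 1.29, 1.48, 0.86 and 0.98 in their normal colon. In tumours of untreated rats it was at 1.51, 1.68, 2.16, 1.36 and 1.08, against 0.61, 0.87, 1.01, -0.19 and -0.15 in their normal colon. The 2 low values of the last group came from rats 8 and 10, both on slides of lot 2. Tumours and normal colon of untreated rats did not overlap.

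In DSS rats the tumour difference of Anxa2 was 0.33 ± 0.23 (adjusted p = 0.472), and in untreated rats it was 1.13 ± 0.23 (adjusted p = 0.00223). Its probe was saturated on 12 arrays, which were 5 of 6 of tumours of DSS rats, all 5 of tumours of untreated rats, 2 of 6 of normal colon of DSS rats and none of normal colon of untreated rats, and the bound in untreated rats was at least 2.05-fold. The DSS effect in normal colon was 0.76 ± 0.23 and just missed the threshold (adjusted p = 0.0525). It passed with the rat as a random block (adjusted p = 0.039) and without the 3 arrays of raised signal (0.91, adjusted p = 0.0281). Of 26 alternative settings, 7 gave a call. It did not pass without rat 1 (0.72, adjusted p = 0.122) or without rat 5 (0.73, adjusted p = 0.116). With median centring in place of loess it was 0.57 (adjusted p = 0.823). Since nearly all tumour arrays were saturated, no size is given for the difference between tumours of the 2 treatments. The interaction contains that same difference, so saturation limits it as well. It was -0.80 ± 0.33 (adjusted p = 0.233), with an adjusted p of 0.024 with the rat as a fixed block and 0.0739 as a random block. With median centring in place of loess, the tumour call in untreated rats was lost (1.04, adjusted p = 0.538) and the interaction was 0.01.

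Partners of Anxa2 did not move as one. S100a10 ran from -0.83 to 0.10 in tumours of DSS rats, -0.53 to 0.61 in tumours of untreated rats, -0.51 to 0.45 in normal colon of DSS rats and -0.71 to 0.62 in normal colon of untreated rats. It passed in no comparison, and its probe was saturated on some arrays of every group. Plat, tissue plasminogen activator, was at 1.90 to 2.40 in tumours of DSS rats, 1.89 to 3.03 in tumours of untreated rats, 1.61 to 3.43 in normal colon of DSS rats and -0.29 to 0.34 in normal colon of untreated rats. Normal colon of untreated rats lay below every other sample for Plat.

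Plat rose by 2.36 ± 0.26 in tumours of untreated rats (adjusted p = 9.89e-06) and by 2.36 ± 0.26 with DSS in normal colon (adjusted p = 1.87e-05), 5.15-fold each. Its interaction was -2.63 ± 0.36 (adjusted p = 0.000641). S100a4, a calcium-binding protein that also binds Anxa2, rose by 2.46 ± 0.37 with DSS in normal colon (adjusted p = 0.000416) and by 1.43 ± 0.37 in tumours of untreated rats (adjusted p = 0.0113). Its normal colon values in untreated rats were -1.35, -1.32 and -1.05 in rats 2, 3 and 4 of lot 1. In rats 8 and 10 of lot 2 they were 0.30 and 0.20. In DSS rats S100a4 was 1.69 lower in tumours on the log2 scale, a change of -1.69 ± 0.37 (adjusted p = 0.00755), and its interaction was -3.12 ± 0.52 (adjusted p = 0.0028). Plg, plasminogen, rose in tumours of both treatments, by 0.78 ± 0.15 in DSS rats (adjusted p = 0.00365) and by 0.55 ± 0.15 in untreated rats (adjusted p = 0.018). Its probe was well above background on 2 of 6 arrays of normal colon of DSS rats and 3 of 7 of normal colon of untreated rats, so those levels are near background. Pla2g4a, the cytosolic phospholipase A2 that annexins inhibit, fell by 0.95 with DSS in normal colon (adjusted p = 0.021).

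Over the list of annexin partners, 11 of 15 genes were measured. Tumours of DSS rats had 1 higher and 1 lower, and tumours of untreated rats had 3 higher and 0 lower, each against normal colon, where 3.73% and 3.85% of all features were called in DSS rats and 8.55% and 9.42% in untreated rats. With DSS, 2 were higher and 1 was lower in normal colon (3.91% and 3.33% of features), and none passed in tumours. The interaction was negative for 2 (1.67% of features). The list's medians were -0.08, 0.23, 0.07, -0.17 and -0.19 in that order, against 0.02, 0, -0.01, 0.01 and 0.02 over all features.

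**Figure D4:**
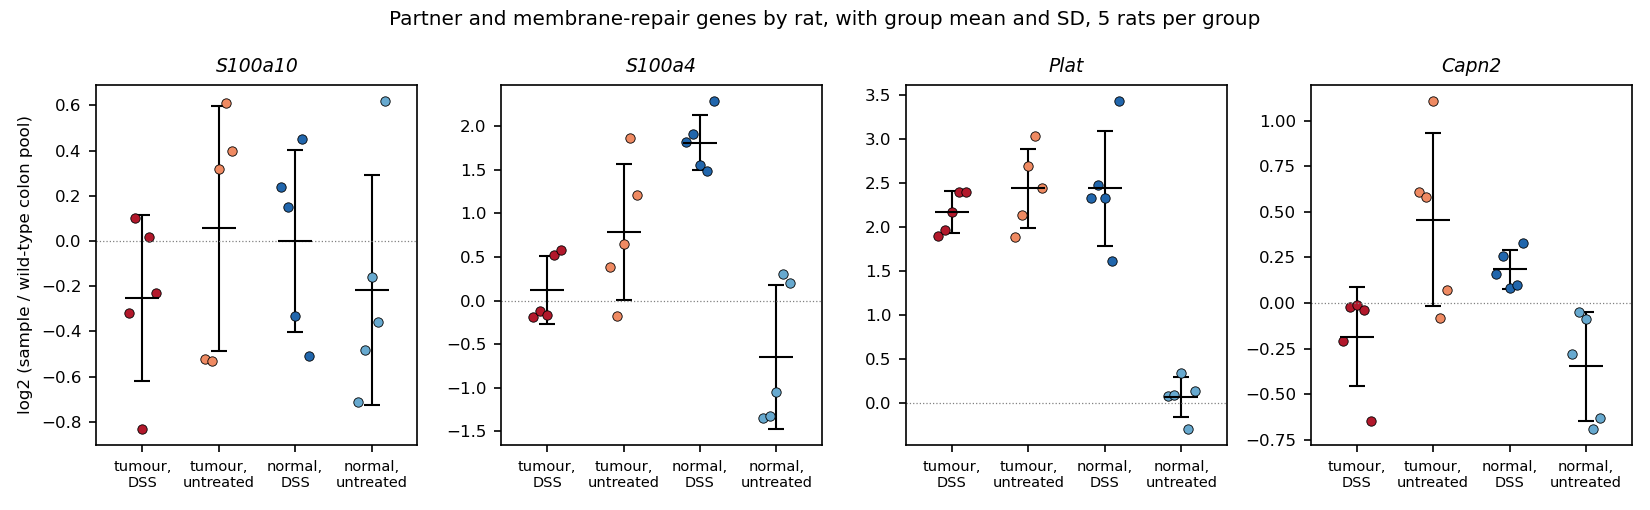
Levels of S100a10, S100a4, Plat and Capn2 as log2 of the sample over the wild-type colon pool (vertical axis) in the 4 groups, with points for rats and bars for the mean and SD of 5 rats. Plat in normal colon of untreated rats, at -0.29 to 0.34, lies below all other samples, and S100a10 overlaps in all groups.

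Of 11 genes of plasma membrane repair, 10 were measured. Of these, 2 passed in tumours of untreated rats, both higher, where 8.55% of all features were called higher, and in the interaction 1 was negative, where 1.67% were. Capn2, a calpain protease that acts early in repair, was 0.81 ± 0.19 higher in tumours than in normal colon of untreated rats (adjusted p = 0.00646), and its interaction was -1.18 ± 0.27 (adjusted p = 0.0248). Pdcd6ip, which recruits the membrane scission machinery, was 0.47 ± 0.15 higher in tumours of untreated rats (adjusted p = 0.0425). No gene of the list passed in the other 3 comparisons, and the medians of the list were within 0.10 of 0 in all 5.

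Anxa13, an annexin of intestinal epithelium, fell in tumours of untreated rats. It was at -1.06, -1.53, -2.62, -1.24 and -1.09 in tumours of DSS rats, against -0.07, -0.01, -1.21, -0.67 and -0.77 in their normal colon. In tumours of untreated rats it was at -0.96, -1.44, -2.36, -2.53 and -2.11, against 0.41, 0.37, 0.09, 0.55 and 0.18 in their normal colon. All 5 normal colons of untreated rats lay above the pool and all other samples below it.

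In DSS rats Anxa13 was lower in the tumour of all 5 rats, with a change of -0.96 ± 0.32 that did not pass (adjusted p = 0.0787). With the rat as a block it did (adjusted p = 0.0226 as a fixed and 0.0225 as a random block). Of 27 alternative settings, 4 gave a call. With median centring in place of loess the change was -0.26 (adjusted p = 0.716). In untreated rats Anxa13 was 4.59-fold lower in tumours, a change of -2.20 ± 0.32 (adjusted p = 0.000144). The DSS difference in normal colon was -0.87 ± 0.32 (adjusted p = 0.117), although the 2 groups did not overlap. The interaction was 1.24 ± 0.45 (adjusted p = 0.174), so a difference in its tumour loss between treatments was not shown.

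Markers of differentiated epithelium were also lower in tumours. Of 8 markers of absorptive colonocytes, 5 were lower and 1 higher in tumours of DSS rats and likewise 5 and 1 in tumours of untreated rats. Of 6 goblet cell markers, 5 were lower in tumours of each treatment. Of all features, 3.85% were lower and 3.73% higher in tumours of DSS rats, and 9.42% and 8.55% in tumours of untreated rats. The goblet mean per rat was -2.96 to -2.04 in tumours of DSS rats, against -0.99 to -0.32 in their normal colon, and -3.08 to -1.02 in tumours of untreated rats, against -0.14 to 0.27 in their normal colon. Their part in the Anxa13 change was not tested.

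Anxa4, found at the membranes of secretory and absorptive epithelium, was called in DSS rats, with values of 0.38, 0.39, 0.31, -0.33 and -0.09 in tumours, against -0.27, -0.25, -0.53, -0.67 and -0.66 in normal colon. In untreated rats it was at 0.01, 0.04, -0.05, -0.38 and -0.47 in tumours, against -0.29, -0.40, -0.30, -0.48 and -0.44 in normal colon. The tumour was the higher tissue in all 5 DSS rats, though the groups overlapped. The change was 0.61 ± 0.14 in DSS rats (adjusted p = 0.0115), 0.54 ± 0.14 on a second probe (adjusted p = 0.0236) and 0.55 without rat 6, where the call was lost (adjusted p = 0.0599). With median centring in place of loess it was 1.30 and not called (adjusted p = 0.181). In untreated rats it was 0.21 ± 0.14 (adjusted p = 0.353). The interaction was 0.39 ± 0.20 (adjusted p = 0.374), so the 2 treatments were not shown to differ.

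Anxa6, Anxa7 and Anxa11 passed in no comparison. Anxa6, a double-length annexin of membrane traffic, ran from -2.34 in a normal colon of untreated rats to -0.68 in a tumour of DSS rats, below the pool in all 20 samples. Its changes in the 4 group comparisons were between 0 and 0.34 in size. Its tumour difference was 0.34 ± 0.26 in DSS rats (95% interval -0.21 to 0.88) and 0.29 ± 0.26 in untreated rats (95% interval -0.25 to 0.84). These intervals leave room for changes of either sign.

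Anxa7, linked to secretion and membrane fusion, was at -1.13 to 0.12 in tumours of DSS rats, -0.65 to 0.55 in tumours of untreated rats, -0.50 to -0.13 in normal colon of DSS rats and -1.03 to -0.01 in normal colon of untreated rats. It was higher in the tumour of all 5 untreated rats, by 0.40 ± 0.24 (adjusted p = 0.306). That difference passed with the rat as a fixed block (adjusted p = 0.0429), where 24.8% of all features were called. It did not pass with the rat as a random block (adjusted p = 0.15). Of 27 alternative settings, 1 gave a call. Anxa11, which carries RNA granules on lysosomes, had changes between -0.28 and 0.12 in the 4 group comparisons. Its tumour difference in untreated rats was -0.28 ± 0.17 (95% interval -0.63 to 0.07).

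Levels of the annexins across the 20 samples gave the highest positive correlations for Anxa3 with Anxa5 (Pearson r = 0.812) and Anxa2 with Anxa8 (r = 0.803), and stronger negative ones for Anxa5 with Anxa13 (r = -0.864) and Anxa3 with Anxa13 (r = -0.853). With group means removed, Anxa3 and Anxa5 were at -0.091, Anxa2 and Anxa8 at 0.648, Anxa5 and Anxa13 at -0.499 and Anxa3 and Anxa13 at -0.364, and the highest pair was Anxa1 with Anxa3 at 0.868. These are descriptions over samples that share slides, rats and the pool, with groups that stand apart. Genes whose levels followed each annexin most closely among 13169 named genes were Ecm1 (r = 0.94), Tpm2 and Pgam1 for Anxa1, Akr1b8 (r = 0.952), Serpinb5 and Ctsl for Anxa5, and C5h1orf122 (r = 0.911), Dgat2 and Rbx1 for Anxa3. For Anxa2 they were Tpm4 (r = 0.945), Bcl2l1 and Smurf1, for Anxa8 Slc30a7 (r = 0.897), Sc5d and Avpi1, and for Anxa13 Coq8a (r = 0.965), Agr3 and Tpmt. They were Dctn3 (r = 0.889), Mlf2 and Eif2b2 for Anxa4, Lix1l (r = 0.936), Itga9 and Podxl for Anxa6, Rtn3 (r = 0.929), Map2k1 and Gapdh-ps107 for Anxa7, and Osbp2 (r = 0.894), Shroom3 and Gse1 for Anxa11. With group means removed, Ecm1 with Anxa1 was at 0.681 and Akr1b8 with Anxa5 at 0.572, while Coq8a with Anxa13 stayed at 0.873.

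Within each lot of slides the called changes kept their direction, with 3 rats per group in lot 1 and 2 in lot 2. For tumours of DSS rats, Anxa1 was at -0.95 in lot 1 and -1 in lot 2, and Anxa4 at 0.71 and 0.45. For tumours of untreated rats, Anxa1 was at 1.19 in lot 1 and 1.29 in lot 2, Anxa2 at 0.96 and 1.39, Anxa3 at 2.16 and 2.20, Anxa5 at 2.44 and 2.05, Anxa8 at 1.06 and 1.05, and Anxa13 at -1.88 and -2.68. For DSS in normal colon, Anxa1 was at 1.72 in lot 1 and 1.58 in lot 2, Anxa3 at 1.12 and 0.81, Anxa5 at 1.40 and 1.22, and Anxa8 at 0.87 and 1.14. The interaction was -2.15 in lot 1 and -2.29 in lot 2 for Anxa1, -1.43 and -1.68 for Anxa3, -2.19 and -1.88 for Anxa5, and -1.20 and -1.49 for Anxa8. In lot 2 alone, the calls left were Anxa2, Anxa5 and Anxa13 in tumours of untreated rats, where 9.2% of all features were called.

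Second probes and second arrays show how well the annexins were read. Pairs of probes of 1 gene correlated at 0.783 (Anxa6) to 0.976 (Anxa3) over the 20 samples. All 7 other probes had the sign of the standing probe in both tumour comparisons, between tumours and in the interaction, and 6 of 7 in the DSS comparison of normal colon, where Anxa6 gave 0 and -0.17. On the 4 samples with a second array, the arrays differed by 0.02 to 0.26 for Anxa3 and by 0.08 to 0.34 for Anxa1. The difference was 0.01 to 0.52 for Anxa11 and 0.07 to 0.68 for Anxa6.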

How the data were processed

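RNA of 20 samples was hybridized to 24 2-colour Agilent arrays, the sample in Cy3 and a pool of wild-type rat colon in Cy5, without dye swaps, per the labels. Per the file headers, Feature Extraction 9.1.3.1 made the deposited intensity and background of each spot and channel. The authors' log ratio is log10 of Cy5 over Cy3 (file headers), and recomputing it from the processed signals gave it within 0.01 for 73.5% to 97.5% of spots (100% of the non-zero ones). The submitters' processing notes also name Partek, without a role.

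Log2 of Cy3 over Cy5 was computed in R 4.3.3 with limma 3.58.1 and statmod 1.5.0: normexp with an offset of 50, loess within arrays, control and non-uniform spots at weight 0. Spots of 1 probe were averaged. Probes well above background on at least 5 of 24 arrays were kept, and the brightest stood for a gene. Names came from RefSeq accessions (10835 probes), current symbols (5201) or older names (4570), and 20406 probes kept the name in the file. Arrays of 1 rat and tissue were averaged before 1 fit of 4 group means (16 residual and 2.23 prior degrees of freedom), with two-sided tests. A bound replaces the fold where a probe was saturated on all arrays of the brighter group.

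The members, lists and alternatives were chosen with earlier results of these data known. All 10 members are named. From the lists, S100a10 and Fpr1 and, per comparison, up to 4 members past the threshold are named, and the 3 genes most correlated with each annexin. S100a11, Fpr2, Ahnak and Sri were not matched to a probe. Normal colon and tumour of 1 rat come from 1 animal, per the labels, and their deviations from group means correlated at 0.0778 to 0.568. The fit was tested on simulated data for DSS against untreated in normal colon: of 100 features changed by 1 on the log2 scale among 26300, 80% were called.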

Additional observations from a re-analysis of the deposited data

Results flagged for a closer look

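Anxa3 in the normal colon of DSS rat 7, at 0.88, stood apart from the other 4 rats of its group (1.95 to 2.35). Its gap to the nearest rat was over the 0.71 of the group's range that Dixon's test allows for 5 samples. It was 1 of 40 groups tested, and chance flags about 1 in 20.

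The DSS effect differed between tumours and normal colon for 4 annexins, by the interaction term of the fit. The difference was -2.20 for Anxa1, -1.53 for Anxa3, -2.07 for Anxa5 and -1.32 for Anxa8. In each, the DSS effect was positive in normal colon and negative, without passing the threshold, in tumours. With median centring in place of loess the tumour effect was 0.11 for Anxa1, 0.08 for Anxa3, -0.14 for Anxa5 and 0.22 for Anxa8. None of these passed, and the median of all features was then 0.22.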

How the results depend on the processing

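Of 50 pairs of annexin and comparison under all alternative settings run for each (1330 values), no called value changed sign, 50 values lost the call and 17 gained it. Another 50 values, uncalled in both, turned sign. Median centring in place of loess left 0 annexins called for tumours of DSS rats, 2 for tumours of untreated rats (Anxa5 and Anxa13), 0 for DSS in normal colon and 0 for the interaction. It called 2.49% of all features for tumours of DSS rats and 3.44% for tumours of untreated rats. For DSS in normal colon it called 1.37%, and for the interaction 0.716%. It shifted the median of all features to 0.25 for tumours of DSS rats, 0.22 for DSS in tumours and 0.38 for the interaction. With loess these medians were 0.02, 0.01 and 0.02. Before that shift is taken off, Anxa1 was at -0.24 for tumours of DSS rats and -1.31 for the interaction. Within lot 2, with 2 rats per group, 0 annexins were called for tumours of DSS rats, 3 for tumours of untreated rats, 0 for DSS in normal colon and 0 for the interaction. The shares of all features called in lot 2 were 0.418%, 9.2%, 0.00753% and 0.0113% in that order. Within lot 1, 2 were called in the interaction, and likewise 2 without the 3 arrays of raised signal, where 1.59% and 1.18% of all features were. With slide as a random block over the 24 arrays, 4 were called for tumours of DSS rats, where 13.6% of all features were. That fit counted second arrays of a sample as separate samples, so its gain in calls cannot be credited to the block. Leaving out each rat in turn gave 1 to 2 for tumours of DSS rats (1 without rat 6), 6 for tumours of untreated rats, 3 to 5 for DSS in normal colon, 0 for DSS in tumours and 2 to 4 for the interaction (2 without rat 1 or rat 9). The share of all features called was then 4.12% to 7.85% for tumours of DSS rats and 9.89% to 19.5% for tumours of untreated rats. It was 4.51% to 8.33% for DSS in normal colon, 0% to 0.0112% for DSS in tumours and 1.2% to 3.02% for the interaction. With the rat as a fixed replicate block the counts were 3 for tumours of DSS rats, 7 for tumours of untreated rats and 5 for the interaction. Of all features, 12.4%, 24.8% and 5.61% were called with that block. With the rat as a random block they were 3, 6 and 4, with 5 for DSS in normal colon and 0 for DSS in tumours. The shares of all features were then 12.8%, 24.8% and 6.28%, with 6.85% for DSS in normal colon and 0% for DSS in tumours. The rat block gained calls for Anxa13, Anxa2 and Anxa7 and changed no other call. The less saturated Anxa1 probe, an alternative chosen after seeing the data, left all counts as they were. The causes were not tested. Saturation limits the size of the Anxa1 and Anxa2 changes.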
